A study of Mus musculus with 4 samples.

Results

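The mouse microRNA genes mir-192, mir-194-1 and mir-194-2 were followed from embryonic stem cells (ESCs) to day 8 embryoid bodies (EBs), the aggregates in which stem cells differentiate. They are 3 of the 626 microRNA entries of a small RNA sequencing table and were taken by name. All 3 had lower levels in the EB library. Of 367 entries that passed a filter on low counts, 30.2% were at least 2-fold lower there. The entry mir-192 was 3.99-fold lower on 328 and 25 mean counts. The copies of miR-194 were near the detection limit in the EB library, at 2 and 3 counts, and may hold the same reads.

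All samples were of CGR8, a mouse ESC line cultured free of feeder cells, with C57BL/6 given as background strain and 129P2/OlaHsd as donor strain, at passages 5 to 13. The day 0 ESCs were kept undifferentiated with leukemia inhibitory factor (LIF, 100 U/ml) in 10% serum, and the EBs were grown without LIF in 20% serum, 2 days in hanging drops and 6 further days in suspension. The labels name 2 replicates per group and give no gene change or drug treatment for either group. Within each group the count columns differed by less than sampling noise, with a chi-square per degree of freedom of 0.235 over 402 ESC entries and 0.284 over 344 EB entries, where independent libraries give about 1. Each group was therefore counted as 1 sample, by the mean of its columns, and no p-value is given. EBs are mixtures of cell types, so fewer cells of a type and less RNA per cell cannot be told apart.

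MicroRNAs are short RNAs cut from hairpin precursors that guide repression of mRNAs, chiefly through the seed, the bases 2 to 8 of the mature strand. MiR-192 and miR-194 are abundant in liver and intestine, tissues of endodermal origin, and are made from shared precursors in which a miR-194 hairpin lies beside miR-192 or its relative miR-215. In intestinal cells their genes are known targets of HNF1 alpha, a transcription factor of liver and gut, and in human cells miR-192, miR-194 and miR-215 are also known as p53-responsive. In mouse kidney mesangial cells miR-192 is induced by TGF-beta, the pathway named in the title of the study.

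The mature strands are shown because they decide which reads can be told apart. The 5p strands of all genes concerned, with the seed in capitals, are as follows (RefSeq, GRCm38.p6, 5′ to 3′).
mmu-miR-192-5p: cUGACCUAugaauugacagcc
mmu-miR-215-5p: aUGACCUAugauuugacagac
mmu-miR-194-5p: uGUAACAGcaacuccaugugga
The strands of miR-192 and miR-215 share the seed UGACCUA and differ at 3 of 21 positions, counted from 1 at the 5′ end (C1A, A12U and C20A, miR-192 first). No other of 1679 mature names in the RefSeq table has this seed, and the seed GUAACAG of miR-194-5p belongs to that microRNA alone. Both miR-194 genes give the identical 5p strand of 22 bases.

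The copies of miR-194 differ on the other arm of the hairpin, shown here because it is the one mature part that could separate them.
mmu-miR-194-1-3p: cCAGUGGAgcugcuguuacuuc
mmu-miR-194-2-3p: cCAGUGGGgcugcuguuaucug
These strands differ at 4 of 22 positions (A8G, C19U, U20C and C22G, mir-194-1 first). The first of these lies in the seed. The table gives 1 count per precursor and does not separate the arms, so which strand was read is not known.

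In the hairpins below the 5p strand is in capitals.
hairpin Mir192: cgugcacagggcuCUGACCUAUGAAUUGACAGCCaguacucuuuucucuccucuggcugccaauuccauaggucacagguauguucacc
hairpin Mir194-2: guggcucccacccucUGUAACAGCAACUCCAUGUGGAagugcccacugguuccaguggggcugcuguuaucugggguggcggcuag
hairpin Mir194-1: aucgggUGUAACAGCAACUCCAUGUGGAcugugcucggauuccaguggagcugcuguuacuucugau
The longest run that the hairpins of Mir194-1 and Mir194-2 have in common is 22 bases, the mature strand itself.

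Mir194-2 spans 6264643 to 6264728 and Mir192 6264844 to 6264932 on the plus strand of chromosome 19 (GRCm38), 115 bases apart. GENCODE release 21 for mouse annotates no other gene over either hairpin. Mir194-1 lies on chromosome 1 at 185313319 to 185313385, and Mir215 follows it after 195 bases, at 185313581 to 185313692, also on the plus strand. This second locus lies within the protein-coding gene Iars2, which is on the opposite strand, and within the noncoding gene 2010103J01Rik on the same strand. Mir215 overlaps an exon of 2010103J01Rik, whereas Mir194-1 overlaps no exon of either gene and is intronic to both.

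**Figure D1:**
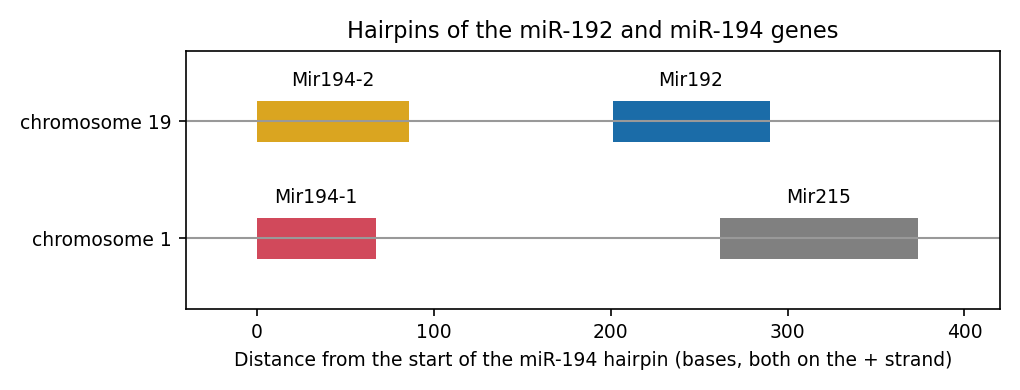
Positions of the hairpins at both loci, in bases from the start of the miR-194 hairpin, drawn to scale. Mir194-2 and Mir192 are separated by 115 bases, and Mir194-1 and Mir215 by 195 bases.

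The entry mir-192, which shares a locus with mir-194-2, had 327 and 329 counts in the ESC columns and 20 and 30 in the EB columns. Scaled to a common library total (CPM), these are levels of 587 and 590 in the ESCs and 144 and 215 in the EBs. Both EB columns lay below both ESC columns. After TMM scaling, which sets the trimmed mean of the log ratios to equality, the EB level was 3.99-fold lower, with an exact 95% interval of 2.65 to 6.25 that covers counting error only and compares these libraries, not the conditions. At its ESC share of the library total, without TMM scaling, mir-192 would have had 81.9 counts in the EB library, against 25 found. The gap between its EB columns ranked 7 among 344 entries when set against counting error. The log2 fold of mir-192 was -1.58 without EB replicate 1 and -2.04 without EB replicate 2. Each of these runs was filtered and scaled anew, so the values mix the gap with a change of scaling. In the same runs mir-194-1, with 2 counts in each EB column, moved from -3.08 to -2.92 and -2.80.

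The entry mir-194-1, neighbour of mir-215, had 55 and 56 counts in the ESC columns and 2 in each EB column. In CPM these were 98.7 and 100.4 in the ESCs and 14.4 in each EB column. The EB level was 8.43-fold lower on these counts, with an interval of 2.23 to 71.4. The copy beside mir-192, mir-194-2, had 66 and 65 counts in the ESC columns and 3 in each EB column, or 118 and 117 CPM against 21.6 and 21.5 CPM. Its EB level was 6.64-fold lower, with an interval of 2.17 to 33.0. At their ESC shares of the library total, without TMM scaling, these copies would have had 13.9 and 16.4 counts in the EB library. A floor of 3 counts corresponds to 5.38 CPM in the ESC columns and to 21.5 or 21.6 CPM in the EB columns, because the EB columns hold 139104 and 139360 counts in all and the ESC columns 557250 and 557643. Neither miR-194 entry was above this floor in the EBs.

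**Figure D2:**
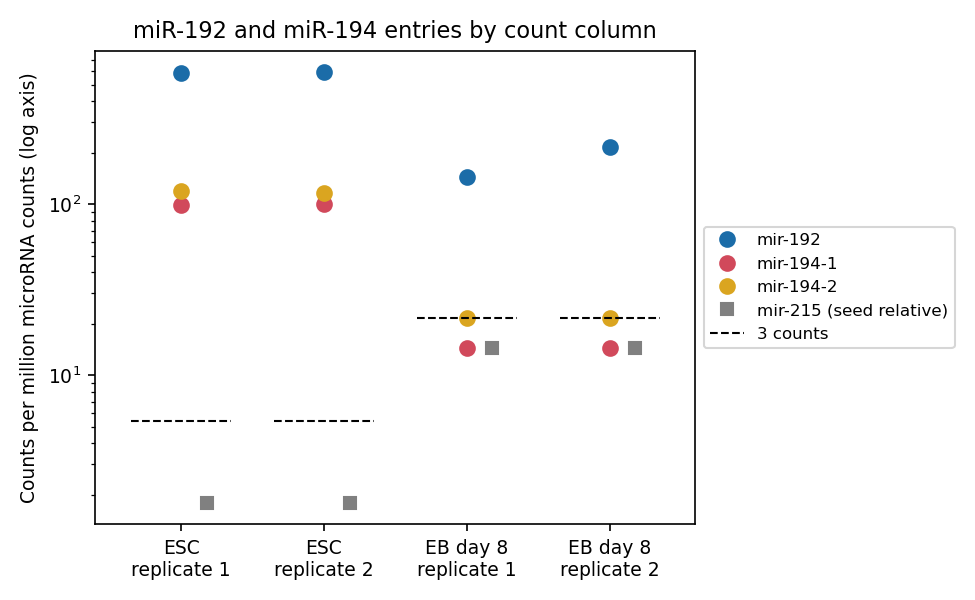
Level of each entry in each count column, in CPM on a log axis, with dashed lines at the level of 3 counts. The entry mir-192 lies at 587 and 590 CPM in the ESC columns and 144 and 215 CPM in the EB columns, and mir-194-1 and mir-194-2 lie at or under the line of 3 counts in the EB columns only.

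The interval of each member excluded no difference, and each was at least 2-fold lower. As background, 367 entries passed a filter on low counts, of which 30.2% had an EB level at least 2-fold lower and 33.5% one at least 2-fold higher. The filter asked for about 28.7 CPM, and mir-192 passed it in both libraries. Of the 296 entries that did so, 29.1% were at least 2-fold lower. The entries mir-194-1 and mir-194-2 were among 30 entries that passed it in all ESC columns and not in all EB columns, and 83.3% of these were at least 2-fold lower, so the count of all members as lower is not read as a result about them. With library totals as the scale the background share was 26.4%, and in the authors' normalized values 31.6%. Of the measured entries, 47 had a lower log2 fold than mir-192.

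**Figure D3:**
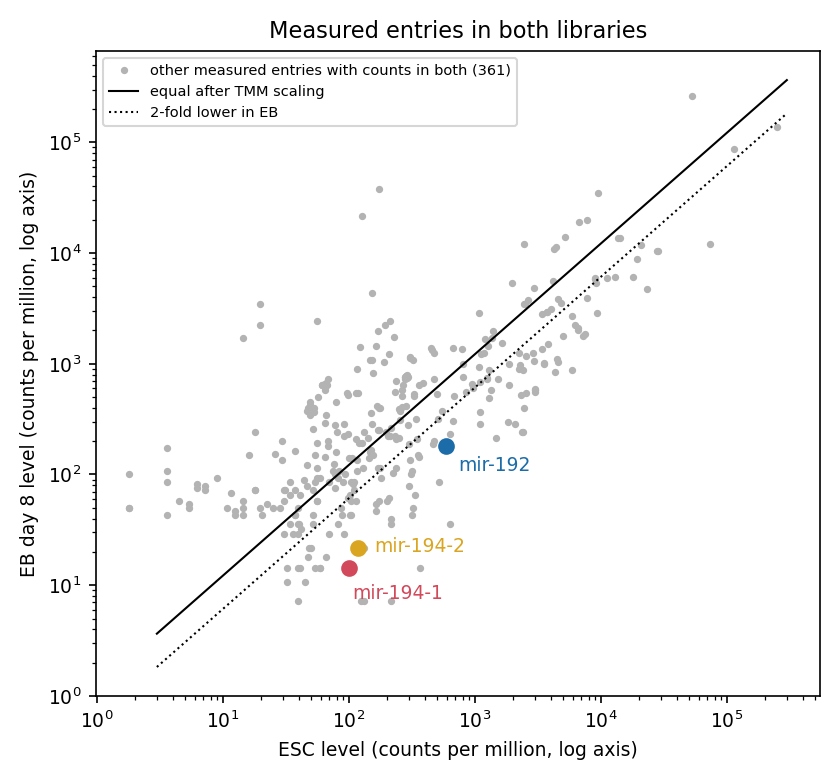
Level in the ESC library against level in the EB library, in CPM on log axes, for measured entries with counts in both (361 and the members). The solid line marks equal levels after TMM scaling and the dotted line a 2-fold lower EB level; the members lie under the dotted line among other entries of like abundance.

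Scaling changed the size of the folds and not their direction. TMM set every log2 fold 0.28 lower than library totals did. Over the 367 measured entries, the median was 0.07 under TMM, 0.35 under library totals and -0.18 on the scale of the authors' normalized values. For mir-192 the log2 fold was -2.0 under TMM, -1.71 under library totals and -2.39 on the authors' normalized scale. The corresponding log2 folds were -3.08, -2.79 and -3.54 for mir-194-1, and -2.73, -2.45 and -3.24 for mir-194-2. The normalized values of mir-192 were 218.25 in each ESC column and 36 and 47.25 in the EB columns. Those of mir-194-1 were 39.25 and 39.5 in the ESC columns and 3.25 and 3.5 in the EB columns, and those of mir-194-2 were 48 and 46.75 against 5 in each EB column. In EB replicate 1 the 31 entries at 2 counts were given normalized values from 3.25 to 4, and the 20 entries at 3 counts values from 4.25 to 6.5, so entries with equal counts differ on this scale.

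**Figure D4:**
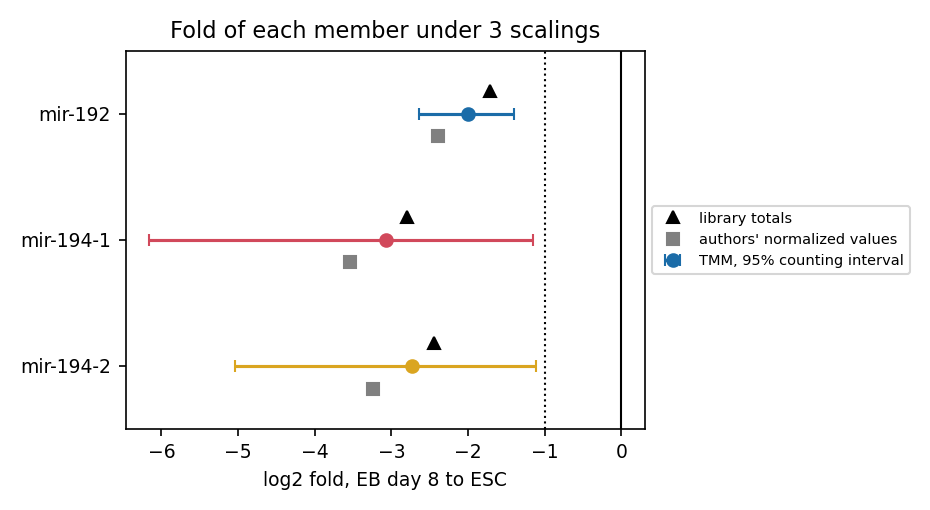
The log2 fold of the EB to the ESC library for each member, with TMM (circles, bars are 95% counting intervals), library totals (triangles) and the authors' normalized values (squares). Every value lies below the dotted line at 2-fold lower, and the interval of mir-192 (-2.64 to -1.41) is the narrowest.

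Within the group, mir-192 was the main entry in both libraries. It was number 103 of 626 entries by ESC count and number 222 by EB count, whereas mir-194-2 was 210 and 360 and mir-194-1 was 227 and 380, with ties at the low EB counts. Of the counts of the 3 members, mir-192 held 73.1% in the ESCs (exact binomial interval 68.7 to 77.1) and 83.3% in the EBs (65.3 to 94.4). This share needs no scaling between libraries, and a change in it was not detectable at this depth. Its total adds both miR-194 entries, which may hold the same reads. With their mean in place of their sum, the total was 388.5 ESC and 27.5 EB counts, of which mir-192 had 328 and 25. The share of mir-192 would then be higher in both libraries, and in the ESCs above the interval given. The members together held 0.0805% of all ESC counts, with an interval of 0.0733 to 0.0883, and 0.0215% of all EB counts, with an interval of 0.0145 to 0.0308.

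The copies of miR-194 had counts of like size, but most pairs of numbered gene copies in the table were closer to each other. The ESC count of mir-194-2 exceeded that of mir-194-1 by 0.24 on the log2 scale. The median difference over 34 pairs of measured copies was 0.05, and 27 pairs were closer than the miR-194 pair. The interval of the share of mir-194-2 in the summed ESC counts of both, 54.1% (44.8 to 63.2), included equal shares. It takes each read as counted for 1 copy only, so it does not show that the copies are equal. Whether the authors' counting gave a read of the common 5p strand to both copies is not stated, so the copies were not taken as separate evidence. Summed, they had 121 ESC and 5 EB counts and were 7.36-fold lower (3.07 to 23.1), with an interval that is too narrow if reads were counted for both.

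**Figure D5:**
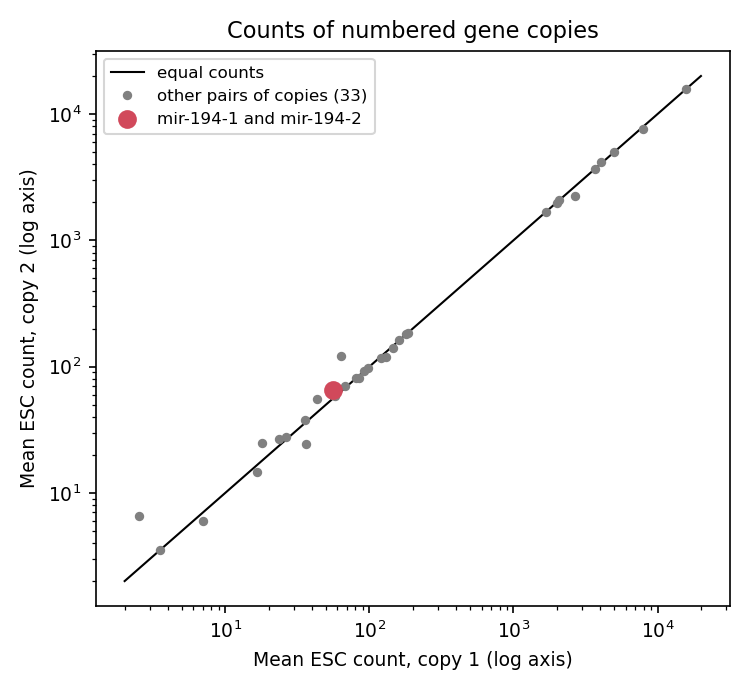
Mean ESC counts of the first and second numbered copy of 34 microRNAs, on log axes, with a line at equal counts. The miR-194 copies, at 55.5 and 65.5 counts, lie near the line, and most other pairs lie closer to it.

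The seed relative mir-215 had 1 count in each ESC column and 2 in each EB column, at or under the floor in both groups, so no fold is given. The neighbours mir-194-1 and mir-215 thus differed by 55.5 to 1 mean counts in the ESC library. Counts of mir-194-1 may include reads of the 5p strand that Mir194-2 also gives, so the output of the chromosome 1 locus is not known from them. Of the other microRNAs listed for liver, intestine or pancreas, the hepatocyte microRNA mir-122 had 0 counts in the ESC columns and 1 in each EB column, and mir-375, of pancreatic endocrine cells, had 1 and 2. Summed, mir-215, mir-122 and mir-375 had 2 counts in the ESC library, a share with an exact interval of 4.34e-05% to 0.0013%, and 5 in the EB library, a share of 0.00359% with an interval of 0.00117% to 0.00838%. The EB share was the higher one, the opposite direction to the members. Overlap of these intervals does not test for a difference, and none was tested. Each entry was at or under the floor in both libraries. The names mir-802, mir-216a, mir-216b and mir-217 were not analysed here. Reference entries for the state of the cultures differed strongly, with mir-302d, of primed pluripotent cells, at 94 and 100 counts in the ESC columns and 5233 and 5239 in the EB columns. Of the 6 listed stem cell entries of the miR-290 locus, mir-294 was 4.10-fold higher in the EBs, and mir-290a, mir-291a, mir-292a, mir-293 and mir-295 were lower, most of all mir-291a, by 7.44-fold. Together they held 52.9% to 53.1% (exact interval) of the ESC library and 51.7% to 52.3% of the EB library. The part of undifferentiated cells in the levels of miR-192 and miR-194 was not tested.

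Of the p53-linked miR-34 genes, known p53 targets in mouse and human cells, the entries went in opposite directions. The entry mir-34a had 4329 and 4317 ESC counts and 546 in each EB column, 2.41-fold lower (2.20 to 2.64) with TMM, but under 2-fold in library totals and in the authors' normalized values, at log2 folds of -0.98 and -0.62. The entries mir-34b and mir-34c, which share a precursor, were higher in the EB library. The counts of mir-34b were 48 and 40 in the ESC columns and 59 and 67 in the EB columns, 4.71-fold higher (3.15 to 7.09), and those of mir-34c were 87 in each ESC column and 115 in each EB column, 4.35-fold higher (3.26 to 5.81).

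The 5 entries with the log2 fold nearest to that of mir-192, out of 50 whose ESC level was within 2-fold of its own, were mir-146b, mir-185, mir-127, mir-582 and mir-22. The likeness is over 2 libraries only. The nearest, mir-146b, a microRNA known from innate immune signalling, had 170 and 180 ESC counts and 14 in each EB column, with a log2 fold of -1.93. The imprinted mir-127, antisense to Rtl1, had 178 and 176 ESC counts and 14 and 16 EB counts, with a log2 fold of -1.84. The log2 folds of mir-185, mir-582 and mir-22 were -1.87, -2.21 and -2.22.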

How the data were processed

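Small RNA from a microRNA isolation kit was built into Ion Torrent libraries with PCR and sequenced on a PGM, per the labels' protocols. No molecular identifiers are described, so intervals cover counting error only. Not given in the sources used here are the aligner, the counter and the genome build. Original counts were deposited as whole numbers, per the file headers, and the authors' mean per group, an expected count that need not be whole. The authors' normalized signal held 1 set of values in all 4 columns, as quantile normalization gives, and the authors' transformed values were its log2. The authors' ratio of transformed means was treated as a score and not used, and the authors' p-values come from a test that is not named.

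Original counts from the mir-664 row on were moved up by 1 row (rank correlation with the normalized values 0.355 to 0.541 before and 0.995 to 0.998 after). The displaced counts of mir-99b (1300, 1306, 70 and 74) were rebuilt as the 1 set of 7280 that gave every normalized value; the members lie before these rows, so only totals are touched.

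Folds are ratios of mean counts after TMM scaling (edgeR 4.0.16) among entries that filterByExpr retained at a minimum count of 10 and a minimum total of 15. Their 95% intervals are exact, from the binomial split of the counts. Shares have exact Clopper-Pearson intervals. An entry was called at a fold of 2 or more. Counts of 3 or fewer were taken as the floor. Alternatives were library totals, DESeq2 (1.42.0) size factors, the authors' normalized values, no filter, counts as deposited, each column left out and edgeR fits for the log2 fold alone. Named entries were the members, the listed relatives and lists, and the 5 entries nearest to mir-192; members and lists were chosen with earlier results of these data known. Sequences are RefSeq's (GRCm38.p6), which held all 4 genes searched, and positions were the same in GENCODE. R 4.3.3, Python 3.11.15, scipy 1.17.1 and matplotlib 3.10.9 were used, and the fold script was tested on simulated data.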

Additional observations from a re-analysis of the deposited data

How the results depend on the processing

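The members kept a log2 fold below -1 under all 11 alternatives run, from -2.39 to -1.58 for mir-192, -3.54 to -2.79 for mir-194-1 and -3.24 to -2.45 for mir-194-2, each within the counting interval of its TMM value. All alternatives start from the same counts and add no separate evidence. Both miR-194 entries passed the filter through the ESC columns only. Of entries over it in all ESC but not all EB columns, 83.3% were at least 2-fold lower, so values below -1 were likely beforehand. Filter and scaling were run again with each column left out in turn. In these runs mir-192 ranged from -2.05 to -1.58, mir-194-1 from -3.14 to -2.80 and mir-194-2 from -2.78 to -2.46. The edgeR fit with the replicate block gave -1.99, -3.04 and -2.71, and without it -1.99, -3.04 and -2.71; same-numbered columns correlated at 0.136 in their deviations over 367 entries, and the numbers name columns only. Counting the miR-194 copies once, by their mean, set the members' share of ESC counts to 0.0697%. The number of entries at least 2-fold lower was 111 of 367, and from 97 to 150 under the alternatives. The 150 came from the run without the filter, and runs with a column left out were filtered anew. These counts are therefore not all out of 367 entries. Depth limits the miR-194 entries, which had 2 and 3 counts in the EB library, and the comparison rests on 1 library per group.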

Other observations

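In the authors' deposited table the adjusted p-values of the miR-194 rows did not match their own p-values. The authors' deposited table gave mir-194-1 a p of 0.0001 and an adjusted p of 1.75e-05, smaller than the p itself, and gave mir-194-2 a p of 5.55e-06 and an adjusted p of 0.00499. Benjamini-Hochberg adjustment of the authors' p-values with a multiplier of 627 gave the deposited adjusted value, within 0.1%, for all but 5 of 468 entries with a p, apart from values set to the largest p at the end of the list. The 5 were mir-194-1, mir-194-2, mir-1941, mir-129-1 and mir-129-2. For the first 3, the same adjustment gave 0.00024, 1.75e-05 and 0.00499, so each value stood in another of these rows of the authors' deposited table: that of mir-194-2 in the row of mir-194-1, that of mir-1941 in the row of mir-194-2, and that of mir-194-1 in the row of mir-1941. The entry mir-1941, named for this after its values were seen, had 2 counts in every column.

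The authors' deposited table listed a p of 0 for mir-192, although its EB columns held 20 and 30 counts. A p of 0 was listed for 188 entries, of which 101 had unequal transformed values within a group.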
